A study of Mus musculus with 12 samples.

Results

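Type I interferon-stimulated antiviral genes were followed in tumour-associated macrophages (TAMs) as a list of 42 gene symbols, each of which was found among the 24781 rows of the deposited count table. The list was chosen by name, with earlier results of these data known. TAMs came from wild-type mice that carried MC38 tumours, grown from a mouse colon adenocarcinoma line, and were collected on day 7 after inoculation. Mice received either the solvent DMSO or picrotoxin, an antagonist of the GABA type A receptor, by intraperitoneal injection from the day before inoculation, so that the groups differed in the agent and shared genotype and tumour. Each library was made from 100 sorted CD45+CD11b+F4/80high cells, with 6 libraries per group, and counts stand for barcoded molecules primed from the poly(A) tail. The methods gave each library its own mouse, but the figure text for this comparison gave fewer mice than libraries. Every n here therefore counts libraries and not mice. The p-values measure the spread between libraries and would be too small if some shared a mouse.

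Type I interferons bind the IFNAR1 and IFNAR2 receptor chains, and the kinases JAK1 and TYK2 then act on transcription factors bound to the receptor. STAT2 and IRF9 are parts of the complex ISGF3, which binds a DNA element, the interferon-stimulated response element (ISRE), at the promoters of antiviral genes. The products sense foreign RNA and DNA, block viral translation, degrade RNA, hold virions at the membrane and feed back on the pathway itself, and macrophages are a well known site of this programme.

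The ISRE was found in the promoters of part of these genes. RefSeq promoter entries on GRCm38 (the assembly also called mm10) were matched for 31 of the 42 genes and not for Parp14, Oas2, Parp9, Mx2, Rtp4, Ifi27l2a, Dhx58, Mx1, Zbp1, Usp18 and Ly6e. The ISRE core, written GAAANNGAAA and searched on both strands with overlaps counted, was present in the 250 bases before the start in 12 of 31 genes (38.7%), compared with 936 of 27025 genes with an entry (3.46%). The STAT element TTCNNNGAA was present in 5 of 31 (16.1%), compared with 8.13% of all entries. A match describes these letters only, and its absence says nothing about binding. The 6 sequences below end at the base before the RefSeq start, read 5′ to 3′ on the strand of the gene, with the ISRE core in capitals. Isg15 and Bst2 are shown for their overlapping cores, Rsad2 and Ifit3 because their counts moved together below, and Oas1a and Oas1g because their near-identical sequence bears on their counts. They lie at chr4:156200819-156200938 (minus strand), chr8:71537473-71537622 (minus), chr12:26456453-26456592 (minus), chr19:34583353-34583528 (plus), chr5:120907526-120907645 (minus) and chr5:120887614-120887733 (minus), in the order given.
Isg15: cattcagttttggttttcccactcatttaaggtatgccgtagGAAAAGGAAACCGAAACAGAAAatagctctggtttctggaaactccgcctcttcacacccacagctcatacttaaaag
Bst2: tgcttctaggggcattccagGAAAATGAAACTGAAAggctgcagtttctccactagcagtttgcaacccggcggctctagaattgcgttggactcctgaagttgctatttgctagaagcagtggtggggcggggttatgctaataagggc
Rsad2: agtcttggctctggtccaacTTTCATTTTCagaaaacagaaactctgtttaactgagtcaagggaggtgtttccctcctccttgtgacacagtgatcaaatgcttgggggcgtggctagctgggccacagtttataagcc
Ifit3: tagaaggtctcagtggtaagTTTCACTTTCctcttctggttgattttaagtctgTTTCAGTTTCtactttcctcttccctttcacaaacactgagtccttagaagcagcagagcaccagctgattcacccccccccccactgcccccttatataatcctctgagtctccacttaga
Oas1a: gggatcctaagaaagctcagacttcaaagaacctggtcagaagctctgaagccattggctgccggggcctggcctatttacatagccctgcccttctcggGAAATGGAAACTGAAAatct
Oas1g: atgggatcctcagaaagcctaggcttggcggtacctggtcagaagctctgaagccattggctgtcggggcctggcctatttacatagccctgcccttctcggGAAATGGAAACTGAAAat
The core of Isg15 began 78, 72 and 66 bases before the start, and that of Rsad2 at 120 bases, read on the opposite strand. Ifitm3 and Irf7 had an entry and no match in this window.

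Libraries held 201697 to 309617 molecules, so that a count of 0 allowed a share of up to 0.000969% to 0.00149% of a library (3 molecules). Of the molecules, 7.37% to 15.2% fell on the ribosomal RNA precursor row Rn45s. All 10 macrophage markers were detected, at 2401 to 3545 molecules per library. Monocyte markers were also detected, 5 of 5, at 216 to 363 molecules in DMSO and 246 to 376 in picrotoxin libraries, mostly Ccr2 (156 to 315). Of 8 plasmacytoid dendritic cell markers 6 were detected, at 185 to 309 and 234 to 293 molecules, from Irf8 (81 to 165), Tcf4 (28 to 63) and Bst2, which is itself on the list of 42. Siglech, the marker most particular to those cells, had 1 molecule over all libraries. Neutrophil, conventional dendritic cell and T and NK cell lists had at most 11 molecules in a library, with S100a9, Ly6g, Flt3, Cd3e and Cd8a at 0. Of the epithelial list Cdh1 had 8 to 20 molecules and Epcam, Krt18, Krt19 and Cldn4 had 0. Matrix and fibroblast markers had 12 to 732 molecules in DMSO and 7 to 50 in picrotoxin libraries, 732 of them in DMSO 5.

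All 42 genes passed the filter of the study, a mean normalised number of molecules above 1, with which 9580 genes were tested. Normalised numbers are counts divided by a size factor per library, with no correction for differences between genes. The bands of level below therefore describe counts only and are not a ranking of expression between genes. A mean of at least 100 normalised molecules was reached by 2 genes, 7 had 30 to under 100, 24 had 10 to under 30 and 9 had less than 10. At least 1 molecule was counted in every library for 40 of 42, the exceptions being Mx2 and Isg20.

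The genes together made up well under 1% of the molecules of a TAM library, with no separation of the groups. In DMSO libraries 1 to 6 the summed share was 0.766%, 0.665%, 0.448%, 0.482%, 0.429% and 0.553%. In picrotoxin libraries 1 to 6 it was 0.651%, 0.557%, 0.450%, 0.413%, 0.644% and 0.506%. The ranges of the groups overlapped, with DMSO 1 and DMSO 2 above every picrotoxin library. Next came picrotoxin 1 and picrotoxin 5, and DMSO 5 and picrotoxin 4 were low. The means were 0.557% ± 0.134 in DMSO and 0.537% ± 0.0987 in picrotoxin (SD, n = 6), a difference of -0.0205 percentage points that is smaller than either SD. Among libraries numbered 3 to 6, which stood apart from 1 and 2 in an earlier processing of these data, the means were 0.478% ± 0.0543 and 0.503% ± 0.101 (SD, n = 4 per group), so the sign of this small difference turned. The library with the highest share, DMSO 1, had a 95% Wilson interval of 0.731% to 0.804%, and the lowest of the same group, DMSO 5, of 0.406% to 0.454%, which cover counting error only and do not overlap. In bulk RNA, fewer cells that express a gene and less RNA per cell cannot be told apart.

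**Figure D1:**
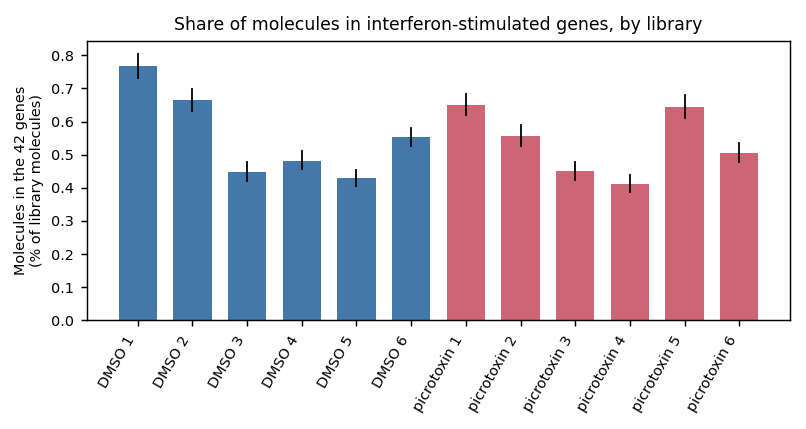
Summed share of the 42 interferon-stimulated genes in each library (percent of library molecules; bars start at 0, DMSO in blue, picrotoxin in red, lines are 95% Wilson intervals). Libraries range from 0.429% to 0.766% in DMSO and from 0.413% to 0.651% in picrotoxin, with the groups overlapping.

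To ask whether blocking the GABA type A receptor altered these genes in TAMs, each was tested in edgeR within the fit of all 9580 genes. None of the 42 had a Benjamini-Hochberg adjusted p under 0.05, against a background of 5 genes (0.0522%), and the lowest adjusted p among them was 0.509. Without adjustment, 3 had p under 0.05 (background 7.77%), of which 2 were higher with picrotoxin (background 3.65%) and 1 lower (background 4.11%). By the rule of the study, an unadjusted two-sided Wald p under 0.05 in DESeq2, 1 gene passed, Ifit1, which was lower (background 2.05% lower, 1.77% higher and 3.82% in either direction). These shares are near the background. Log2 fold changes (picrotoxin over DMSO) were negative for 20 of 42 genes, compared with 50.8% of all genes tested, and their median was 0.0050, compared with -0.0060 over all genes. In libraries numbered 3 to 6 alone, 9 of 42 were negative and the median was 0.16, compared with -0.0027 over all genes. For 0 of 42 did the groups fail to overlap (background 0.188% lower and 0.198% higher).

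The 95% intervals show what size of change the fit allowed for each gene. They treat libraries as independent, are set per gene with no allowance for 42 genes, and would be too narrow if some shared a mouse. They lay within 1 log2 unit of 0 for 35 of 42 genes, reached 1 or more for 2 genes and -1 or less for 5, and were between 0.497 and 2.74 wide. The narrowest was that of Ly6e, from -0.30 to 0.20, and the widest that of Isg20, from -2.10 to 0.65, which had at most 4 molecules in a library.

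**Figure D2:**
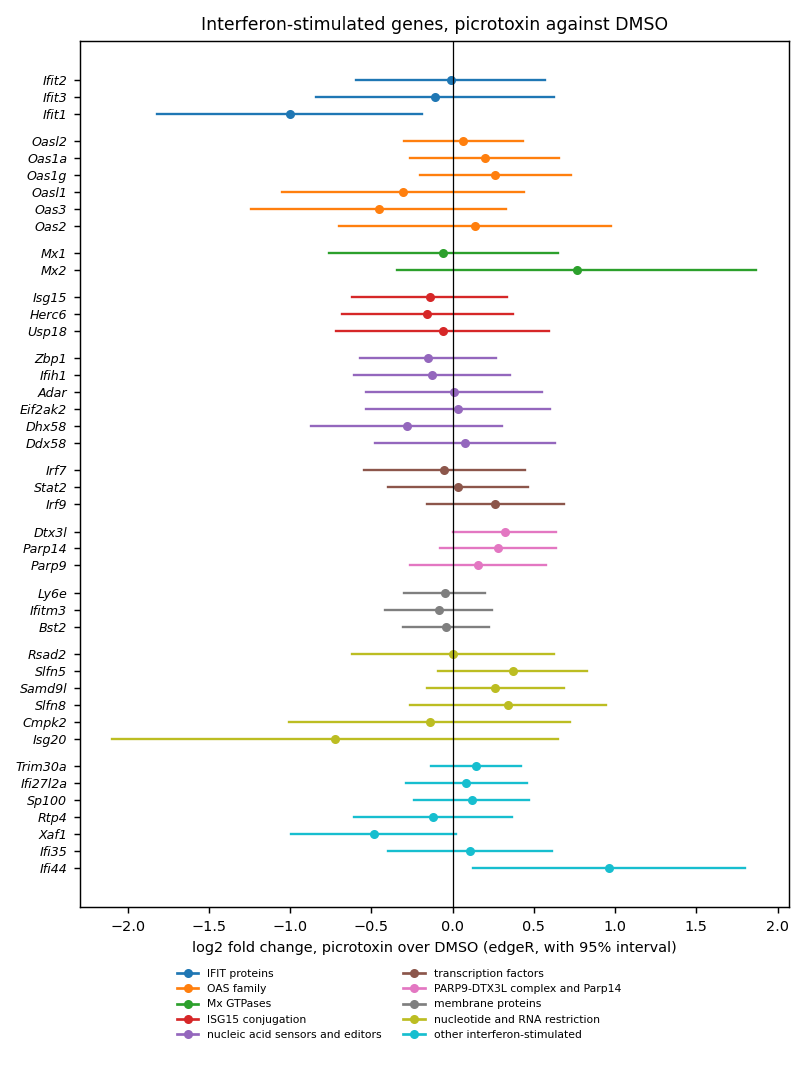
Log2 fold change of each gene, picrotoxin over DMSO, with its 95% interval from edgeR (12 libraries), coloured and ordered by role. Only the intervals of Ifit1 on the left and of Ifi44 and Dtx3l on the right leave 0 out, before adjustment.

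IFIT proteins bind viral RNA and translation factors. Ifit1, which recognises RNA caps that lack host methylation, ran from 4.64 to 18.7 normalised molecules in DMSO (median 8.13) and from 1.05 to 10.4 in picrotoxin (median 3.83). It was lower than the DMSO mean in 5 of 6 picrotoxin libraries, with the groups overlapping and DMSO 1 the highest library. Means were 9.67 ± 5.15 and 4.69 ± 3.92 (SD, n = 6), a log2 fold change of -1.003 (SE 0.40; edgeR, unadjusted p = 0.018, adjusted p = 0.509). In libraries numbered 3 to 6 it was -0.58 (unadjusted p = 0.229), and without DMSO 1 it was -0.74 (unadjusted p = 0.075). Ifit2 ran from 9.82 to 33.3 in DMSO (median 18.3) and from 8.41 to 42.6 in picrotoxin (median 17.7), with a log2 fold change of -0.01 (SE 0.29). Ifit3 had 40.3 normalised molecules in picrotoxin 5 and 4.21 to 12.04 in the other picrotoxin libraries, against 8.18 to 22.8 in DMSO. Ifit1, Ifit2 and Ifit3 lie within 1 cluster on chromosome 19. The library picrotoxin 5 was the highest of its group for all of them. About 51.2% of the 50-base stretches of Ifit3 also occur in its near copy Ifit3b, so the split of molecules between the copies is uncertain.

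OAS enzymes make short oligoadenylates that switch on RNase L, and 6 members of the family were measured, all on chromosome 5. Oasl2, an OAS-like protein, ran from 17.2 to 35.7 normalised molecules in DMSO (median 28.4) and from 23.0 to 37.5 in picrotoxin (median 27.3). The groups overlapped almost fully, with a log2 fold change of 0.07 (SE 0.18). Oasl1, which represses translation of Irf7, had a wider spread, from 3.27 to 27.1 in DMSO and from 2.10 to 16.1 in picrotoxin. Its log2 fold change was -0.31 (SE 0.37). Oas3 ran from 2.45 to 16.6 in DMSO, with DMSO 1 highest, and from 4.21 to 7.37 in picrotoxin, where every library was below the DMSO mean of 7.55. Its log2 fold change was -0.45 (SE 0.39). Oas1a and Oas1g differed by at most 3 molecules in any library and share 57.6% and 45.7% of their 50-base stretches with other genes, so that they are read here as 1 measurement of uncertain origin. Their log2 fold changes were 0.20 (SE 0.23) and 0.26 (SE 0.23). For the other member, Oas2, it was 0.14 (SE 0.41), at 1.64 to 7.37 normalised molecules.

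Mx proteins are dynamin-like GTPases that trap viral nucleoproteins. Mx1 ran from 5.12 to 15.4 normalised molecules in DMSO (median 10.4) and from 3.69 to 23.0 in picrotoxin (median 8.23), where picrotoxin 5 was highest and picrotoxin 1 lowest. Its log2 fold change was -0.06 (SE 0.35), and it turned to 0.51 in libraries numbered 3 to 6 (unadjusted p = 0.195 in edgeR). Mx2, annotated as a polymorphic pseudogene in mouse, had 0 to 4 molecules per library and an interval from -0.34 to 1.87.

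The ubiquitin-like protein ISG15 is attached to targets by HERC6 and removed by USP18. Isg15 ran from 13.9 to 37.7 normalised molecules in DMSO (median 24.3) and from 15.0 to 40.6 in picrotoxin (median 20.4). DMSO 1, DMSO 2 and picrotoxin 1 were the high libraries. Its log2 fold change was -0.14 (SE 0.23), beside -0.16 (SE 0.26) for Herc6 and -0.06 (SE 0.32) for Usp18.

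Of the sensors and editors of nucleic acids, Zbp1, which reads left-handed nucleic acid, ran from 17.2 to 54.1 normalised molecules in DMSO (median 36.2) and from 21.0 to 44.6 in picrotoxin (median 31.7). DMSO 5 was the lowest library and DMSO 1 the highest, and the log2 fold change was -0.15 (SE 0.21). The RNA helicases Ifih1 (MDA5), Ddx58 (RIG-I) and Dhx58 (LGP2) had log2 fold changes of -0.13, 0.08 and -0.28. Those of Eif2ak2, the kinase PKR that halts translation, and Adar, which edits double-stranded RNA, were 0.03 and 0.01. Each had an unadjusted p of at least 0.332 in edgeR.

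Among the transcription factors, Irf7, which drives interferon genes, ran from 19.5 to 65.5 normalised molecules in DMSO (median 28.8) and from 16.1 to 49.3 in picrotoxin (median 35.6). The groups overlapped, and the log2 fold change was -0.05 (SE 0.24), turning to 0.20 in libraries numbered 3 to 6. Irf9 and Stat2, the partners in ISGF3, had narrower spreads. Irf9 had 13.1 ± 2.20 in DMSO and 15.4 ± 1.71 in picrotoxin (SD, n = 6), and Stat2 had 17.9 ± 5.87 and 17.8 ± 2.73. Irf9 shares exon bases with Rnf31 on the same strand, which counting cannot separate by strand, and Irf7 with Phrf1 on the other, which a count without strand would not separate.

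The PARP9-DTX3L complex, a ubiquitin ligase with an ADP-ribosyltransferase partner, and Parp14 of the same region of chromosome 16 had positive log2 fold changes throughout. Dtx3l ran from 25.4 to 47.9 normalised molecules in DMSO (median 38.6) and from 38.1 to 59.0 in picrotoxin (median 44.3). Every picrotoxin library lay above the DMSO mean, although the groups overlapped. Means were 37.9 ± 7.94 and 46.6 ± 7.53 (SD, n = 6), a log2 fold change of 0.32 (SE 0.16; edgeR, unadjusted p = 0.046, adjusted p = 0.638). Without DMSO 5 it was 0.22 (unadjusted p = 0.162). Parp14, an ADP-ribosyltransferase, was also above the DMSO mean in 6 of 6 picrotoxin libraries, with a log2 fold change of 0.28 (SE 0.18), and Parp9 in 4 of 6, with 0.16 (SE 0.21). Parp9 and Dtx3l lie on opposite strands and overlap by 682 bases. The sources used here do not state whether counting used strand, so reads in that overlap cannot be told apart.

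Membrane proteins carried a large part of the molecules, and Ly6e and Ifitm3 alone made up 32.6% to 43.4% of those on the list in each library. Ly6e, a GPI-anchored protein that limits virus fusion, ran from 249 to 416 normalised molecules in DMSO (median 278) and from 227 to 371 in picrotoxin (median 293). DMSO 1, DMSO 2 and picrotoxin 1 were high, and the log2 fold change was -0.05 (SE 0.12). Ifitm3, which blocks virus entry from endosomes, ran from 146 to 284 in DMSO and from 102 to 241 in picrotoxin, with -0.09 (SE 0.16). Bst2, or tetherin, which holds virions at the cell surface, ran from 57.6 to 91.6 and from 59.2 to 78.2, with -0.04 (SE 0.13). Their 95% intervals lay within 0.42 of 0 on the log2 scale.

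In the group that limits nucleotides and RNA, Rsad2 (viperin, which makes a chain-terminating nucleotide) varied widely in both groups. It ran from 17.2 to 68.1 normalised molecules in DMSO (median 32.8) and from 20.1 to 88.6 in picrotoxin (median 29.3). DMSO 6 was followed by DMSO 2 at 52.6 and DMSO 1 at 40.6, whereas picrotoxin 5 was followed by picrotoxin 1 at 38.7. The log2 fold change was 0.0018 (SE 0.31), and without picrotoxin 5 it was -0.42 (unadjusted p = 0.141 in edgeR). Cmpk2, a nucleotide kinase whose start lies 12751 bases from that of Rsad2 on chromosome 12, was highest in the same libraries, at 18.3 normalised molecules in DMSO 6 and 18.4 in picrotoxin 5. Slfn5, a nuclear Schlafen protein, and Slfn8 of the same family had log2 fold changes of 0.37 (SE 0.22) and 0.34 (SE 0.30), Samd9l, a restrictor of poxviruses, 0.26 (SE 0.21), and the exonuclease gene Isg20 -0.72 (SE 0.67).

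Of the remaining genes, Ifi44 had the third unadjusted p under 0.05. It ran from 1.02 to 5.96 normalised molecules in DMSO (median 3.47) and from 2.01 to 14.7 in picrotoxin (median 5.84), above the DMSO mean in 5 of 6 libraries, with picrotoxin 1 and 2 highest and the groups overlapping. Means were 3.71 ± 1.98 and 7.28 ± 4.62 (SD, n = 6), a log2 fold change of 0.96 (SE 0.41; edgeR, unadjusted p = 0.025, adjusted p = 0.562). Without picrotoxin 1 it was 0.61 (unadjusted p = 0.174), and in libraries numbered 3 to 6 it was 0.51 (unadjusted p = 0.353). Xaf1, linked to cell death, had a log2 fold change of -0.49 (SE 0.25; unadjusted p = 0.061). Trim30a, a ubiquitin ligase of the TRIM family, ran from 46.6 to 74.9 in DMSO (median 60.7) and from 56.8 to 82.0 in picrotoxin (median 61.2), with 0.14 (SE 0.14). Ifi27l2a, Ifi35, the nuclear body gene Sp100 and Rtp4 were between -0.12 and 0.12.

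**Figure D3:**
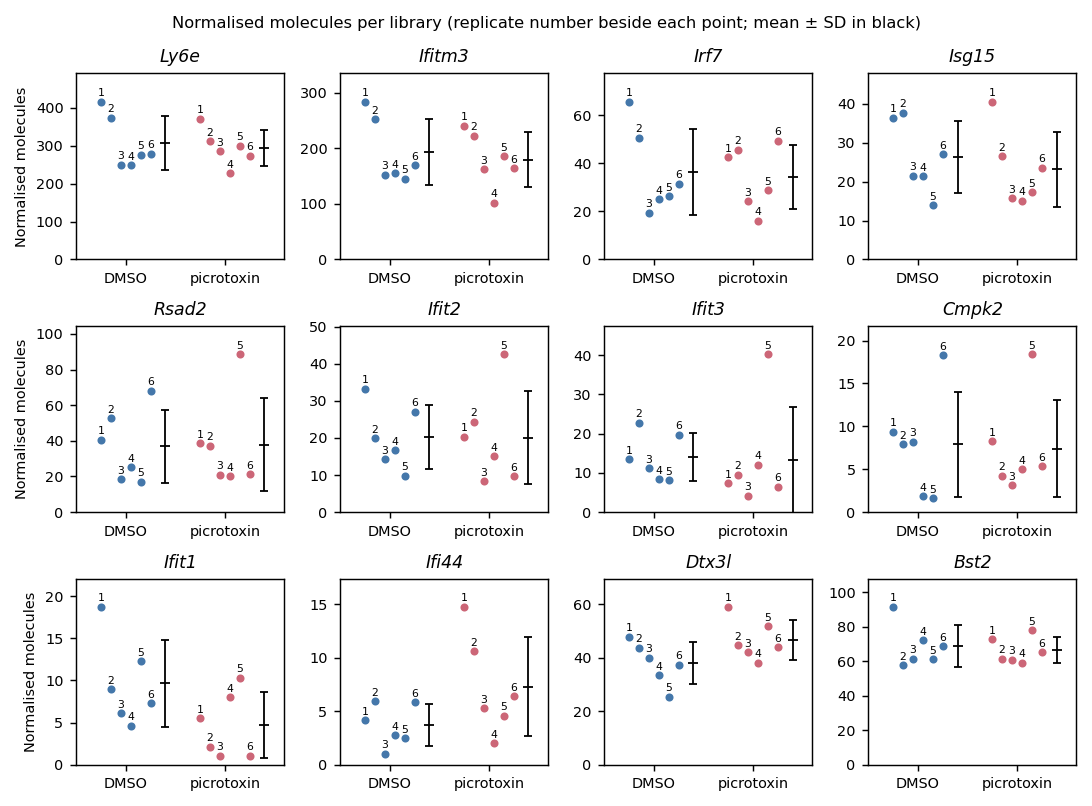
Normalised molecules per library for 12 of the genes (y axis from 0; each point 1 library with its replicate number; black bars are mean ± SD, n = 6). Ly6e, Ifitm3 and Isg15 are highest in DMSO 1 and 2 and in picrotoxin 1, Irf7 in DMSO 1 and 2 and in picrotoxin 6, whereas Rsad2 and Cmpk2 peak in DMSO 6 and picrotoxin 5 (Rsad2 at 68.1 and 88.6), and the groups overlap in every panel.

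While the groups did not separate, the genes moved together from library to library. For the 33 genes with a mean of at least 10, Pearson r was taken over the 12 libraries on log2 CPM with group means subtracted. The median over 528 pairs was 0.41 (quartiles 0.22 and 0.60), 93.0% of pairs were positive and 37.9% were above 0.5. Over all 3741 genes of that level the median was 0.0057, with 50.6% positive and 7.03% above 0.5. These are descriptions, since all pairs share the same 12 libraries, their depth and their sorted cells, and some libraries may share a mouse. In libraries numbered 3 to 6 alone the median was 0.33 (31 genes), with 80.0% positive and 29.5% above 0.5. All genes with a mean of at least 10 there had a median of 0.0033, with 50.3% positive and 13.2% above 0.5. Among the 9 genes with a mean of at least 30 the median was 0.62, with all 36 pairs positive. All genes with that mean had a median of 0.034, with 53.6% positive. For the 33 genes the median biological coefficient of variation was 0.169, compared with 0.122 over all genes with a mean of at least 10. It was above the latter for 28 of 33 genes.

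**Figure D4:**
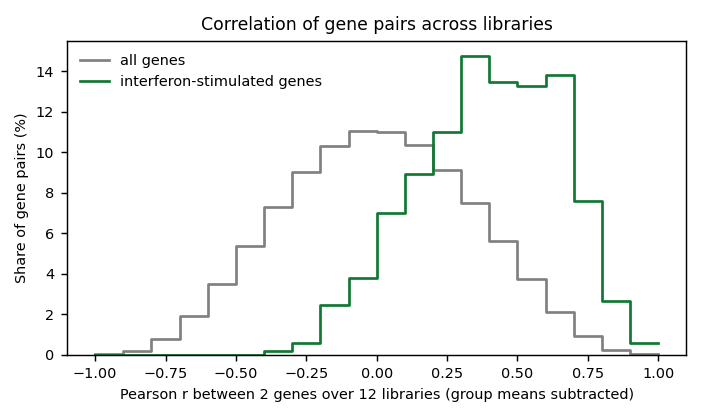
Share of gene pairs (percent, y axis) by Pearson r over 12 libraries with group means subtracted (x axis), for the 528 pairs of interferon-stimulated genes in green and for pairs of all 3741 genes in grey. The green line is moved to the right, with a median of 0.41 against 0.0057.

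Libraries differed in how many of the genes were high or low. DMSO 1 was the highest of its group for 21 of 42 genes and DMSO 2 for 11, and picrotoxin 5 for 17 and picrotoxin 1 for 14. DMSO 5 was the lowest of its group for 23, and picrotoxin 4 and picrotoxin 3 for 16 and 14. The same tally was not made over all genes, and Oas1a and Oas1g are both counted in it and in the pairs above. On the log2 scale the 33 genes lay on average 0.42 above their group mean in DMSO 1 and 0.35 above it in picrotoxin 5. They lay 0.42 below it in DMSO 5, where 2 of 33 were above the mean, and 0.34 below it in picrotoxin 3. DMSO 5 was also the library with the most matrix molecules, at 0.264% of its total compared with 0.00308% to 0.0674% in the others, and their part in its low values was not tested. Without DMSO 5 the median r was 0.34 over 496 pairs.

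The libraries that were high depended on the gene. Ly6e, Ifitm3, Irf7 and Isg15 followed each other, with r of 0.95 for Ifitm3 with Ly6e, 0.88 for Irf7 with Ifitm3 and 0.84 for Isg15 with Ifitm3. They were highest in DMSO 1 and 2, and in picrotoxin 1 except for Irf7, which was highest in picrotoxin 6. Isg15 with Ly6e had 0.80 over all libraries and 0.17 in those numbered 3 to 6. Rsad2, Ifit2, Ifit3 and Mx1 followed another order and were highest in picrotoxin 5. The r was 0.87 for Rsad2 with Ifit2, 0.82 for Rsad2 with Ifit3, 0.79 for Ifit2 with Ifit3 and 0.79 for Ifit3 with Mx1, and 0.92, 0.85, 0.96 and 0.80 in libraries numbered 3 to 6. All of these r include picrotoxin 5, where Rsad2, Ifit2, Ifit3 and Mx1 lay 1.19 to 1.79 above their group mean on the log2 scale. The r of these pairs without picrotoxin 5 was not taken. Between these sets of genes r was 0.57 for Ifitm3 with Rsad2, 0.52 for Ly6e with Rsad2 and 0.19 for Ifit3 with Ly6e. The sets were drawn after the values were seen, and in libraries numbered 3 to 6 they were not clearly apart, with 0.57 for Ifitm3 with Rsad2 and 0.46 for Isg15 with Ifitm3. Herc6 with Trim30a reached 0.93.

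Members also differed in how far they followed the rest. The median r with the other 32 genes was highest for Oasl1 (0.61), Dtx3l (0.60) and Ifitm3 (0.58). It was lowest for Eif2ak2 (0.13) and for the signalling components Stat2 (0.16) and Irf9 (0.20), whereas Irf7 had 0.53. Mean normalised molecules were 11.3, 17.9, 14.3 and 35.4 in that order, and 10.9 for Oasl1. Their biological coefficients of variation were 0.18, 0.13, 0.058 and 0.26, and 0.33 for Oasl1. The part of counting noise in these r was not tested. Irf7 with Stat2 had 0.10 and Irf9 with Stat2 0.37.

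**Figure D5:**
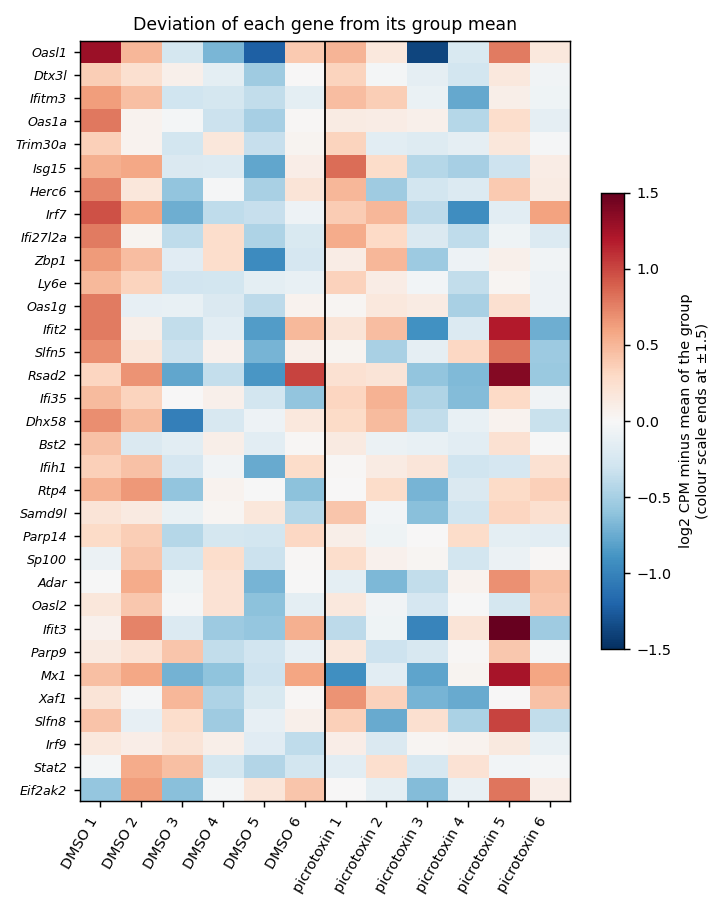
Log2 CPM of each of 33 genes minus its group mean (colour, scale ending at ±1.5) in the 12 libraries, ordered from the highest to the lowest median r with the other genes. DMSO 1 is above its group mean for 29 of 33 genes and DMSO 5 for 2 of 33, and the strongest red in picrotoxin 5 falls on Ifit2, Ifit3, Rsad2, Mx1 and Slfn8.

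Outside the list, the 10 genes of 3708 whose deviations were most like the mean of the 33 were Gbp3, Ifi205, Ccdc86, Ppt1, Efr3a, Cox7a2, Psme2b, Casp1, Klf6 and Erbin, with Pearson r from 0.92 to 0.84 over 12 libraries. Gbp3, an interferon-inducible GTPase, had 0.92 and Ifi205, a DNA-binding PYHIN protein, 0.92. Casp1 is the inflammasome protease and Klf6 a zinc-finger transcription factor, at 0.85 each, and Cox7a2 is a subunit of cytochrome c oxidase, at 0.87. The 10 were picked as the highest of 3708 values over 12 libraries, with no test, so high r can come from the ranking alone.

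The pathway above these genes, together with other interferon targets, was read from 114 further genes, of which 87 were tested. The 87 are not all upstream, since 32 were other interferon-stimulated genes and 14 were genes led by interferon gamma. None of the 87 had an adjusted p under 0.05 in edgeR. Without adjustment 9 of 87 were higher and 1 lower, beside 350 (3.65%) and 394 (4.11%) of all 9580 genes tested. Of the 9 higher, 4 were genes led by interferon gamma, and the 1 lower was among the other interferon-stimulated genes. Log2 fold changes were negative for 31 of 87, compared with 50.8% of all genes tested. The median of the 87 was 0.09, compared with -0.0060 over all genes. These lists were chosen with earlier results of these data known, so the counts are descriptions. All 18 type I interferon genes, Ifnb1 among them, had 0 molecules in every library, and Ifng had 2 in all. Of the receptor chains, Ifnar1 had 18.0 ± 3.82 normalised molecules in DMSO and 17.9 ± 3.82 in picrotoxin (SD, n = 6). Ifnar2 ran from 32.3 to 39.3 in DMSO (median 36.9) and from 40.3 to 49.3 in picrotoxin (median 43.7), so that the groups did not overlap (background 0.198% higher). Its log2 fold change was 0.30 (SE 0.13; edgeR, unadjusted p = 0.030, adjusted p = 0.596).

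Among kinases and STAT factors, log2 fold changes were 0.06 for Jak1, 0.34 for Tyk2, 0.45 for Jak2 and 0.35 for Stat3, with unadjusted p under 0.05 in edgeR for Jak2 and Stat3. Irf1 and Irf3, factors that act at interferon promoters, had 0.22 and -0.06. Irf8, a factor of the macrophage lineage that interferon gamma induces, ran from 83.0 to 156 in DMSO (median 124) and from 137 to 175 in picrotoxin (median 159). Every picrotoxin library was above the DMSO mean, with a log2 fold change of 0.39 (SE 0.13; edgeR, unadjusted p = 0.0043, adjusted p = 0.341). Ptpn1, a phosphatase of JAK kinases, had 0.30, and of the genes led by interferon gamma Gbp5, Igtp and Irgm2, all GTPases, and Nos2, the inducible nitric oxide synthase, had 0.43, 0.34, 0.48 and 0.65. These 4 of the 14 tested are named for an unadjusted p under 0.05 in edgeR (background 3.65% higher). The other 10 of the 14 tested ran from -0.15 for Cxcl10 to 0.25 for Gbp3, 5 of them negative, and the median of the 14 was 0.12. Ifitm1, of the same family as Ifitm3, was the 1 gene on the lower side, at 16.4 ± 6.31 in DMSO and 8.96 ± 5.35 in picrotoxin (SD, n = 6). Its log2 fold change was -0.82 (SE 0.30; edgeR, unadjusted p = 0.0097, adjusted p = 0.426).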

How the data were processed

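The authors deposited counts of barcoded molecules per gene, which they mapped to mm10 with STAR, as the labels and methods state. Handling of multi-mapping reads and strand was not given in the sources used here. The table held no spike-in row.

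Genes with a mean above 1 normalised molecule (counts over DESeq2 size factors) were tested over all 12 libraries with the edgeR 4.0.16 quasi-likelihood test, TMM and Benjamini-Hochberg adjustment over all genes tested. DESeq2 1.42.0 gave the rule of the study, and limma 3.58.1 the voom alternative. Standard errors were derived from the fold change and the F statistic. Correlations used log2 CPM (TMM, prior count 2). The members and gene lists were chosen with earlier results of these data known, as were the tests and alternatives. One alternative, co-variation without DMSO 6 and picrotoxin 5, was chosen after seeing the values. Values were given for members with an unadjusted p under 0.05 in either tool or the highest mean of their role. Values of Ifit3, Oas3, Oasl1, Cmpk2, Ifitm3 and Bst2, among others, were added after they were seen. For 1 pathway gene no result is reported here, but it stays in the counts. The tests were tested on simulated data.

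Within-group pairs of libraries had chi-square per degree of freedom of 1.23 to 3.15, more than sampling noise. Same-numbered libraries correlated at -0.0050 to 0.13 and were not treated as pairs. Gene positions are GENCODE release M21 on GRCm38. Counts, totals and Wilson intervals cover counting error only.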

Additional observations from a re-analysis of the deposited data

Results flagged for a closer look

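In groups of 6, a library at either end was marked where its gap to the nearest other library, over the range of the group, passed Dixon's 95% value. Of 86 such tests on the genes and their summed share, 5 passed, compared with 4.3 from chance alone. In picrotoxin 5, Ifit3 had 40.3 normalised molecules (others 4.21 to 12.04), Rsad2 88.6 (others 20.1 to 38.7) and Cmpk2 18.4 (others 3.15 to 8.29). In DMSO 1, Oas1a had 26.0 (others 9.82 to 14.9) and Oas1g 23.9 (others 9.82 to 13.9), which share sequence and are not separate measurements.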

How the results depend on the processing

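After adjustment, none of the genes tested (42, or 33 with a mean above 10) were past 0.05 under the 21 alternatives. The unadjusted count of 3 became 1 in DESeq2, 5 with every gene of at least 1 count and 0 of 33 with a mean above 10, and 1 to 4 with single libraries left out (1 without picrotoxin 2). The study's rule gave 0 with a mean above 10 and 0 to 3 with single libraries left out (0 without DMSO 5 or picrotoxin 2, 3 or 6; 3 without picrotoxin 5). Without DMSO 1, and in numbers 3 to 6, its 1 call was a gene higher with picrotoxin, and Ifit1 was not called. Ifi44 had an unadjusted p of 0.061 in DESeq2. The median log2 fold change ran from -0.08 without DMSO 5 (16 higher, 26 lower) to 0.16 in numbers 3 to 6 (33 higher, 9 lower), and library totals gave -0.05, with -0.063 for all genes. With the replicate number as a block, 0 genes passed adjustment, 4 had an unadjusted p under 0.05 and the study's rule gave 1, so the block moved no count by over 1.5 times and changed no named call. The median r became 0.33 in numbers 3 to 6, 0.62 for means of at least 30, 0.48 without DMSO 6 and picrotoxin 5, and 0.34 to 0.47 with single libraries left out. Of 250 refits of 12 named genes, 36 turned sign and none crossed 0.05 in adjusted p. Rsad2 turned to -0.013 in limma-voom, -0.051 with library totals, -0.0078 with DESeq2 size factors, -0.014 with every gene, -0.021 with a mean above 10 and -0.0088 with a term for numbers 1 and 2. In numbers 3 to 6 Ifit2 turned to 0.11, Mx1 to 0.51, Irf7 to 0.20 and Ly6e to 0.059. With single libraries left out, log2 fold changes ran from -0.35 to 0.16 for Ifit2, -0.050 to 0.16 for Oasl2, -0.44 to 0.13 for Mx1, -0.18 to 0.18 for Irf7, -0.13 to 0.056 for Ly6e and -0.42 to 0.30 for Rsad2. The causes were not tested. Depth limits the 9 genes with a mean under 10.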
